A study of Mus musculus with 7 samples.

Results

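The miR-297, miR-466, miR-467 and miR-669 family is a large set of microRNAs (miRNAs). Most of its loci lie together in an intron of Sfmbt2, a Polycomb group gene of mouse chromosome 2. Members were taken by name, as every row of the count table that begins with one of these 4 numbers. That gave 134 of 1078 rows and 68 of 959 mature names. Copies of 1 name with equal counts were counted once, and names with equal counts in every library were merged, which left 60 of 945 miRNAs: 4 of miR-297, 22 of miR-466, 10 of miR-467 and 24 of miR-669. They were read in 7 small-RNA libraries, 1 for each group, made after anti-Flag immunoprecipitation from mouse embryonic stem cells whose background lacks Argonautes. The groups carried Flag-tagged wild-type Ago2 (WT), Ago2 K566A, Ago2 Q548A, Ago2 R792A C793A, Ago2 GKT GKGT or Ago2 PGKTP AAAAA, or were an empty control, and all 7 share the Ago-null background. The sources used here do not say whether a library stands for 1 clone or a pool of cells. Each group has 1 library, so the values have no replicate to set them against, no p-value is given, and every comparison is of 2 libraries.

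Ago2 is the Argonaute protein that takes a miRNA duplex, keeps 1 strand as the guide and lets the other, the passenger strand, go. The guide's 5' end sits in a pocket between the MID and PIWI domains. Of the changed residues, K566 and Q548 belong to the MID domain and R792 and C793 to the PIWI domain, while GKT GKGT and PGKTP AAAAA alter a loop of the MID domain next to the first base of the guide. The series, by its title, is about the part of Argonautes in that choice of strand. Each hairpin gives a strand from its 5' side (5p) and one from its 3' side (3p). The Sfmbt2 cluster is known from rodents, is imprinted with its host gene, and was cloned in part from embryonic stem cells. Its hairpins arose by local duplication in a stretch rich in simple repeats.

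Simple repeats can be read in the few sequences at hand. RefSeq (GRCm38.p6) held a mature sequence for 1 of the 68 member names, miR-466i-3p, which is shown for its seed (bases 2 to 8, in capitals), and a hairpin named Mir297-1, shown for its longest run of a repeated unit of 4 bases (UAUG, 21 nt, in capitals).
miR-466i-3p: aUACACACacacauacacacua
Mir297-1 hairpin: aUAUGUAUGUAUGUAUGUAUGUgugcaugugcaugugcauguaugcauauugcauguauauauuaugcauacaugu
The mature sequence is 22 nt long, and 11 nt of it are an unbroken alternation of A and C. The hairpin is 76 nt long. The miR-466i-3p locus lies on chromosome 13, outside the cluster, and the place of the hairpin was not read. Neither sequence is therefore shown to come from the cluster. Members of like sequence may share reads, so counts of single members are uncertain where reads could match several of them.

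On the genome (mm9, as deposited) 131 of the 134 rows lay between positions 10388304 and 10439867 of chromosome 2, a span of 51.6 kb. No other row of the table lay in that span. The 3 remaining rows were miR-297a-5p on chromosome 7 (11543826 to 11543847) and the 2 arms of miR-466i on chromosome 13 (17839359 to 17839407). Of 81 miRNA genes with these names in the GENCODE annotation, 71 lay inside a transcript of Sfmbt2, on its strand, and 0 overlapped an exon. That annotation is of build GRCm38, and its positions were not set beside those of mm9. The cluster had a regular build. Its 10 copies of miR-467a-5p followed each other at a median step of 2462 nt, with a miR-466 5p locus within 1000 nt downstream of 9 of them and a miR-669 5p locus 517 to 519 nt downstream of all 10. The 10 copies had between 17453 and 17463 counts each in wild type, so the position of a copy carries no information of its own.

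**Figure D1:**
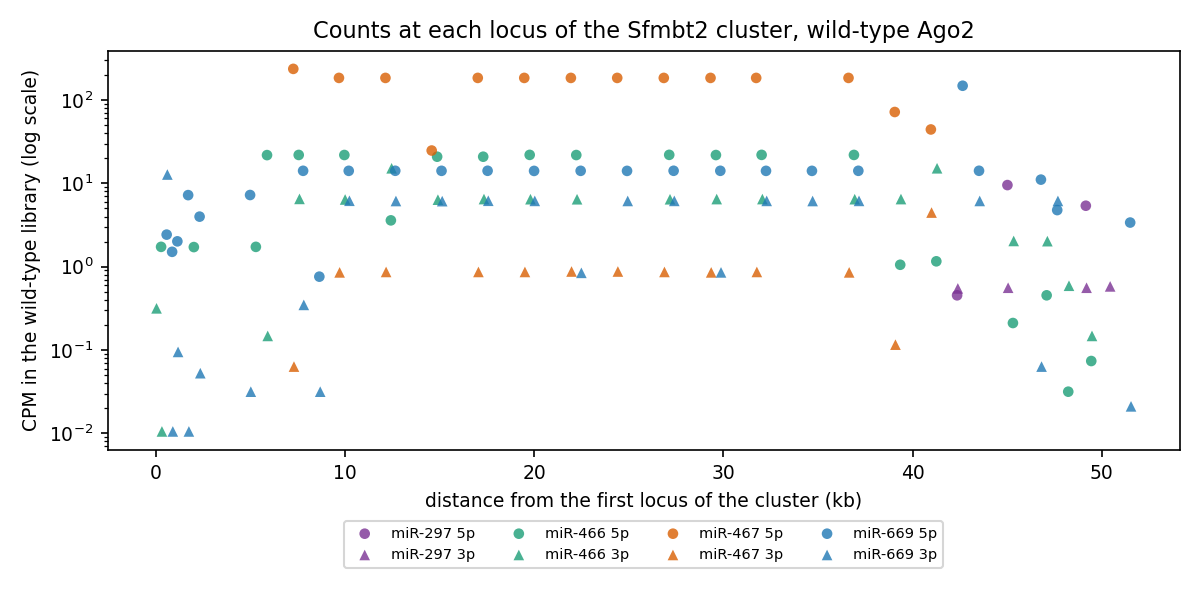
Each point is 1 locus of the cluster on chromosome 2, by distance from the first locus (kb) and by counts per 1000000 (CPM, log scale) in the wild-type library, with colour for the family and shape for the arm. Loci with counts are shown, and copies of 1 name lie in level rows because they have equal counts. miR-467c-5p and the 10 copies of miR-467a-5p lie highest, followed by miR-669c-5p.

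Depth ran from 14912914 counts (K566A) to 94839768 counts (WT) in the 6 Ago2 libraries and was 33457 counts in the empty control. Where a member had no counts, its level could still be as high as 0.0316 counts per 1000000 (CPM) in WT, 0.201 CPM in K566A or 89.7 CPM in the control. Markers of embryonic stem cells, the miR-290 and miR-302 clusters, took 59.7% (K566A) to 80.0% (PGKTP AAAAA) of counts. The K566A library stood apart: miR-292-5p took 21.7% of its counts against 57.3% to 70.5% in the other Ago2 libraries, and its summed fibroblast markers were 4731 CPM against 633 to 1287 CPM, with 8 of 10 markers detected. Shares of a total move when 1 miRNA takes that much, so each direction below was also read with median-of-ratios size factors and with miR-292-5p left out of the total.

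In wild type the family summed to 880.9 CPM (95% Wilson interval 875.0 to 886.9), or 0.0881% of counts. The miR-467 members made up most of it, with 566.7 CPM, followed by miR-669 with 219.97 CPM, miR-466 with 78.3 CPM and miR-297 with 15.95 CPM. Strands from the 5' side gave 93.9% of the family's counts. All 4 groups give mature strands of 19 to 25 nt, so these levels compare miRNAs of like length. Intervals here and below cover counting error only, since reads without molecular identifiers are not independent molecules. The empty control held 42 counts of the family, or 1255 CPM (929 to 1696), which is 1.43 times the wild-type CPM (1.03 to 1.93). The family therefore took a share of the control's few reads that was no lower than its share in wild type.

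The summed family was 2971 CPM in K566A, 1113 CPM in Q548A, 1215 CPM in R792A C793A, 706.0 CPM in GKT GKGT and 700.2 CPM in PGKTP AAAAA. K566A was the highest Ago2 library and both loop mutants were the lowest. The fold over wild type was 3.37 in K566A (3.33 to 3.41), and 1.91 with median-of-ratios size factors or 1.56 with miR-292-5p left out of the total. In the same library the summed fibroblast markers were 4.30 times and the markers of differentiated tissues 4.97 times their wild-type CPM. The sum of the Dlk1-Dio3 cluster, another imprinted miRNA cluster, was 1.43 times, and that of the miR-290 cluster 0.761 times. The miR-290 sum includes miR-292-5p, which took 63.7% of counts in WT and 21.7% in K566A. Of 13 miRNAs of that cluster with a mean of at least 10 CPM, 8 lay above wild type and 5 below (median log2 ratio 0.18). In the Dlk1-Dio3 cluster 32 of 67 lay above and 35 below (median -0.47). What part these shifts have in the family's fold was not tested. In Q548A the fold was 1.26 (1.18 and 1.32 with the 2 other scalings), and in R792A C793A 1.38 (1.07 and 1.17). In GKT GKGT it was 0.801 (0.901 and 0.987). In PGKTP AAAAA it was 0.795, a direction that turned to 1.22 with median-of-ratios size factors and stood at 0.948 without miR-292-5p. By CPM the Dlk1-Dio3 cluster stood at 1.05 in Q548A, 0.969 in R792A C793A, 0.791 in GKT GKGT and 0.588 in PGKTP AAAAA.

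A change in the make-up of the family does not depend on the library size used. miR-467 held 64.3% of the family's counts in WT, 65.2% in Q548A, 62.3% in PGKTP AAAAA, 71.3% in R792A C793A, 71.2% in GKT GKGT and 78.5% in K566A (78.1 to 78.9). The share in K566A was thus the highest, and those in Q548A and PGKTP AAAAA lay within about 2 percentage points of wild type. The share of miR-669 went the other way, with 24.97% in WT, 24.2% in Q548A and 13.6% in K566A. This is a fall in share: by CPM its sum was 219.97 in WT and 403.7 in K566A. miR-467c-5p alone held 26.8% of the family's counts in WT and 41.6% in K566A, while miR-669c-5p held 16.8% in WT, 9.97% in K566A and 24.1% in PGKTP AAAAA.

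**Figure D2:**
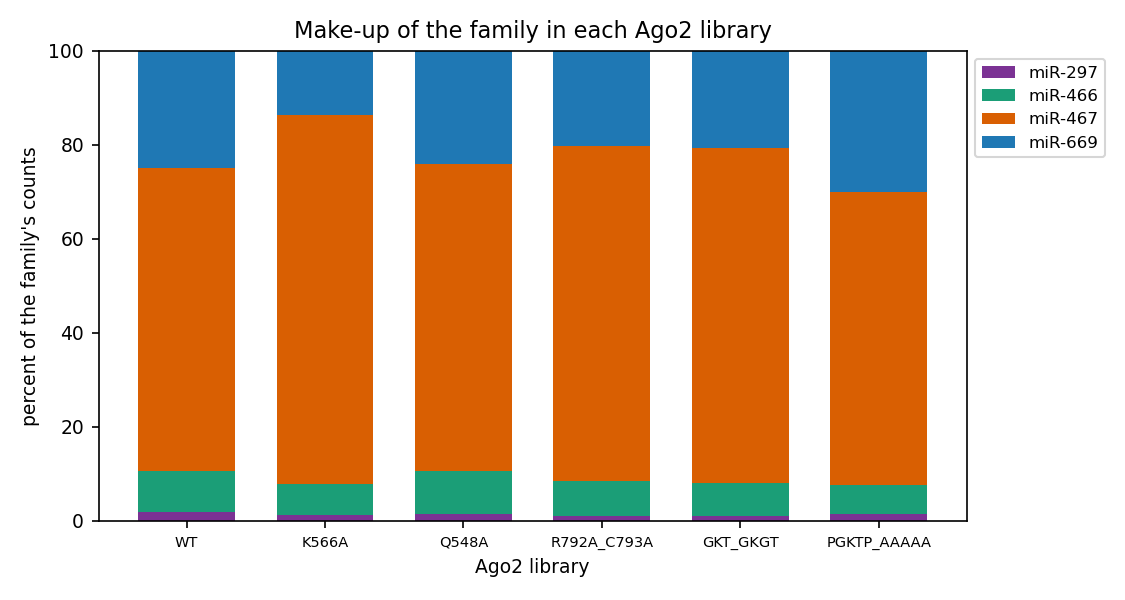
Bars show the percent of the family's counts that each of the 4 groups of members took in each Ago2 library, 1 library per bar. miR-467 took 64.3% in WT and 78.5% in K566A, and miR-669 took 24.97% and 13.6%.

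Members were tested one by one where their mean over the 6 Ago2 libraries reached 10 CPM. This left 13 of the 60 members, among 336 of all miRNAs: 5 of miR-467, 5 of miR-669, 3 of miR-466 and 0 of miR-297. Of these 11 were 5p and 2 were 3p strands, from 31 and 29 members. 1 of them, miR-669d-5p (7.22 CPM in WT), passed only through its level in K566A: its mean over the other 5 Ago2 libraries was 7.79 CPM. Of the others, 3 members were at 0 in every library and 42 members in all had counts in each Ago2 library. A member was called higher or lower where the exact conditional 95% interval of its CPM ratio lay wholly above 2 or below 0.5.

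miR-467c-5p, the most abundant member, had 236 CPM in WT, 1237 in K566A, 290 in Q548A, 365 in R792A C793A, 218 in GKT GKGT and 195 in PGKTP AAAAA. miR-467a-5p, the member with 10 copies, had 184 CPM in WT, 489 in K566A, 223 in Q548A, 259 in R792A C793A, 157 in GKT GKGT and 135 in PGKTP AAAAA. By CPM both had the same order of libraries, with K566A far above the rest and the loop mutants below wild type. This order depends on the scaling. For miR-467a-5p the log2 ratio of K566A to wild type was 1.41 by CPM and 0.30 without miR-292-5p in the total, where Q548A lay above K566A. Median-of-ratios size factors raise every PGKTP AAAAA log2 ratio by 0.62, which puts both members above wild type there. miR-669c-5p, encoded once, had 148 CPM in WT, 296 in K566A, 171 in Q548A, 153 in R792A C793A, 95.9 in GKT GKGT and 169 in PGKTP AAAAA. It was thus lowest in GKT GKGT, and it was the only tested member above wild type in PGKTP AAAAA by CPM.

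miR-467e-5p had 71.8 CPM in WT, 298 in K566A, 114 in Q548A, 134 in R792A C793A, 47.1 in GKT GKGT and 57.0 in PGKTP AAAAA. miR-467d-5p had 44.3 CPM in WT, 261 in K566A, 62.4 in Q548A, 77.0 in R792A C793A, 41.8 in GKT GKGT and 35.6 in PGKTP AAAAA. These are single loci near the downstream end of the cluster, 39.1 and 41.0 kb from its first locus. miR-467b-5p, from a single locus at 14.6 kb, had 24.8 CPM in WT, 37.95 in K566A, 31.5 in Q548A, 27.3 in R792A C793A, 35.9 in GKT GKGT and 11.96 in PGKTP AAAAA, so its 2 loop mutants lay on opposite sides of wild type.

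Among the miR-466 members, miR-466c-5p had 20.9 CPM in WT, 87.7 in K566A, 30.8 in Q548A, 27.2 in R792A C793A, 13.7 in GKT GKGT and 16.9 in PGKTP AAAAA. The merged miR-466b-5p/miR-466o-5p, with 9 loci, had 21.9 CPM in WT and 17.9 in K566A, with 28.6 in Q548A, 22.3 in R792A C793A, 15.9 in GKT GKGT and 10.2 in PGKTP AAAAA. The pair started from near-equal levels in WT and parted in K566A. The remaining miR-466 strand, the merged miR-466a-3p/miR-466e-3p, had 15.2 CPM in WT, 33.7 in K566A, 16.7 in Q548A, 14.6 in R792A C793A, 7.19 in GKT GKGT and 5.94 in PGKTP AAAAA.

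Among the less abundant miR-669 members, the merged miR-669a-5p/miR-669p-5p, with 14 loci, had 14.1 CPM in WT, 6.04 in K566A, 17.1 in Q548A, 13.7 in R792A C793A, 5.54 in GKT GKGT and 5.78 in PGKTP AAAAA. miR-669f-3p, the other tested 3p strand, had 12.8 CPM in WT, 6.97 in K566A, 17.7 in Q548A, 23.7 in R792A C793A, 17.9 in GKT GKGT and 12.4 in PGKTP AAAAA. By CPM these miRNAs were below wild type in K566A, where the 5 tested miR-467 members were above it. Of those 5, miR-467b-5p rose least, with a log2 ratio to wild type of 0.62, and was not called. It was at -0.21 with median-of-ratios size factors. miR-669m-5p (11.1 CPM in WT, 37.7 in K566A, 15.0 in Q548A, 18.0 in R792A C793A, 6.04 in GKT GKGT, 5.70 in PGKTP AAAAA) followed the miR-467 pattern. miR-669d-5p had 7.22, 25.3, 11.2, 10.2, 5.36 and 5.02 CPM in the same order. It was tested only through its level in K566A, so it had to lie high there.

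**Figure D3:**
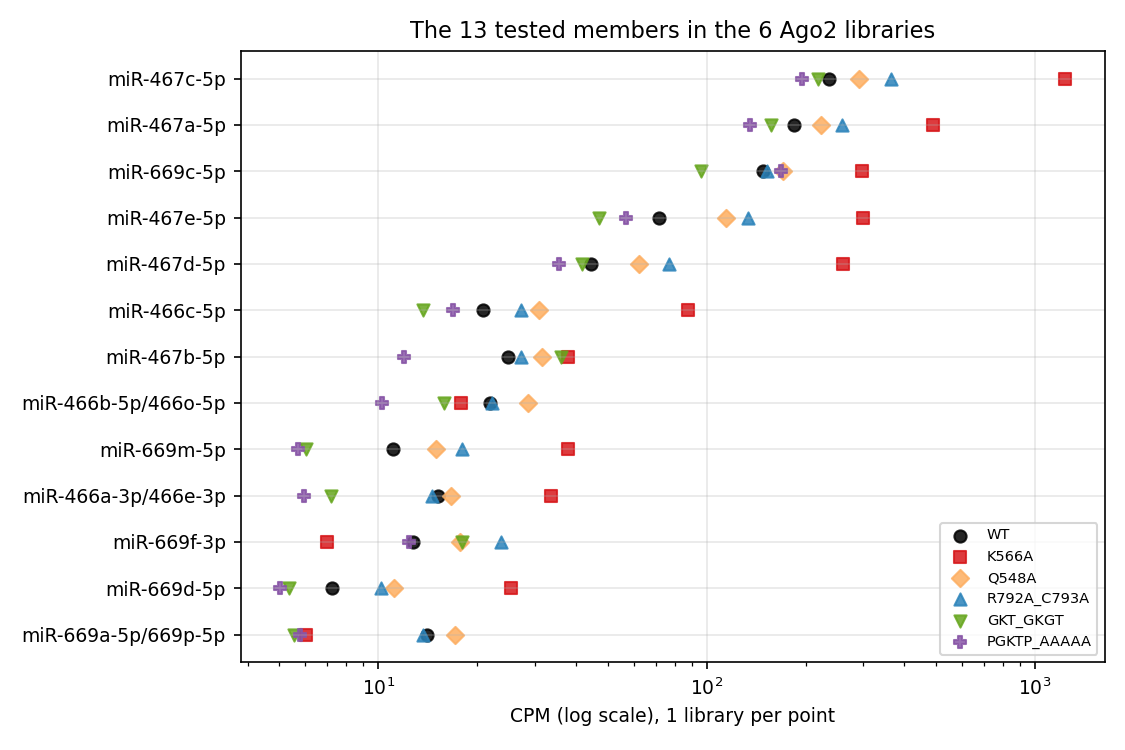
Each row is 1 tested member and each point 1 library, placed by CPM on a log scale. By CPM, K566A is the highest library for 10 of the 13 members, and is below wild type for miR-466b-5p/miR-466o-5p, miR-669f-3p and miR-669a-5p/miR-669p-5p. Among the 10, miR-669d-5p was tested only through its level in K566A. With median-of-ratios size factors 4 members lie below wild type in K566A, and without miR-292-5p in the total 5 do.

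In K566A 8 of the 13 members were called higher and 0 lower, where 47.6% of all 336 tested miRNAs were called higher and 19.6% lower. The members' median log2 ratio was 1.41 and that of all tested miRNAs 0.91. Those called higher were miR-467d-5p (log2 ratio 2.56), miR-467c-5p (2.39), miR-466c-5p (2.07), miR-467e-5p (2.06), miR-669m-5p (1.77), miR-467a-5p (1.41), miR-466a-3p/miR-466e-3p (1.15) and miR-669d-5p (1.81). The last entered through K566A itself and had to lie high there, and without it the count was 7. The scaling decided much of this: with median-of-ratios size factors, which lower every K566A log2 ratio by 0.82, 4 members were called higher and 2 lower, and with miR-292-5p left out of the total 2 were called higher and 3 lower. The difference between members does not depend on it. From miR-669a-5p/miR-669p-5p (log2 ratio -1.22) to miR-467d-5p (2.56) the ratios spanned 3.78 log2 units, with an SD of 1.23 over the 13 members and 2.28 over all tested miRNAs.

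Ratios of 2 members inside a library restate this without a library size. They come from the same counts, and the pairs were chosen after their values were seen. A K566A ratio that stands apart therefore describes these pairs and is no further support. miR-466c-5p stood at 0.953 of miR-466b-5p/miR-466o-5p in WT (0.896 to 1.01) and at 4.90 times it in K566A (4.29 to 5.61), against 1.08 in Q548A, 1.22 in R792A C793A, 0.863 in GKT GKGT and 1.65 in PGKTP AAAAA. miR-467d-5p stood at 1.79 times miR-467b-5p in WT (1.70 to 1.88), 6.87 times in K566A (6.29 to 7.51), 1.98 in Q548A, 2.82 in R792A C793A, 1.16 in GKT GKGT and 2.98 in PGKTP AAAAA. miR-467c-5p stood at 1.28 times miR-467a-5p in WT, 2.53 times in K566A (2.46 to 2.60), and 1.30 to 1.44 times in the other 4 mutants. For these 3 pairs of like-named members, the K566A interval lay apart from the intervals of the 5 other Ago2 libraries. miR-669d-5p over miR-669a-5p/miR-669p-5p went from 0.512 in WT to 4.20 in K566A. Since miR-669d-5p entered only through K566A and had to lie high there, this last ratio is a description only.

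With a limit of 1 CPM in place of 10, 32 members entered, and in K566A 16 were called higher and 3 lower, against 44% and 19.4% of 520 miRNAs. The 3 called lower were all miR-669 5p strands: miR-669o-5p (453 counts in WT and 7 in K566A, log2 ratio -3.25), miR-669e-5p (2 counts in K566A, -3.17) and miR-669h-5p (321 and 9, -2.41). Called higher at this level were also miR-297a-5p (511 and 395 counts, log2 ratio 2.30) and miR-466f-5p (164 and 155, 2.59). miR-297c-5p (43 and 62 counts, 3.19) passed the limit of 1 CPM only through K566A, and without it the count was 15. miR-297b-5p (904 and 128 counts) was at -0.15. These members were named after their values were seen, and their K566A counts are low.

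Q548A, the other MID change, left the family near its wild-type make-up. 0 of the 13 members were called higher and 0 lower, where 1.79% and 4.46% of all tested miRNAs were. The log2 ratios ran from 0.14 (miR-466a-3p/miR-466e-3p) to 0.67 (miR-467e-5p), with a median of 0.39 against 0.07 for all tested miRNAs. All 13 lay above 0, also with median-of-ratios size factors and without miR-292-5p in the total, and their SD was 0.163 against 0.560 over all tested miRNAs. With a fold of 1.5 in place of 2, miR-467e-5p was called higher.

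Set directly against Q548A, K566A had 7 members higher and 2 lower, where 47.3% and 19.6% of all tested miRNAs were called; with median-of-ratios size factors 2 were higher and 3 lower. The 7 were miR-467c-5p (log2 ratio 2.09), miR-467d-5p (2.06), miR-466c-5p (1.51), miR-467e-5p (1.39), miR-669m-5p (1.33), miR-467a-5p (1.14) and, entered only through K566A, miR-669d-5p (1.19). The 2 were miR-669a-5p/miR-669p-5p (-1.50) and miR-669f-3p (-1.34). This comparison does not share the wild-type library.

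In R792A C793A 0 of 13 members were called higher and 0 lower, where 15.8% and 6.85% of all tested miRNAs were. The median log2 ratio was 0.49 against 0.43 for all tested miRNAs. The highest were miR-467e-5p (0.90), miR-669f-3p (0.89) and miR-467d-5p (0.80), and the lowest miR-466a-3p/miR-466e-3p (-0.06) and miR-669a-5p/miR-669p-5p (-0.05). Of the 13, 11 lay above 0 by CPM and 8 with either of the other scalings.

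In GKT GKGT 0 of 13 members were called higher, where 11% of all tested miRNAs were, and 1 was called lower, where 11.9% were. The 1 was miR-669a-5p/miR-669p-5p (log2 ratio -1.35), and it was no longer called with either of the other scalings. The median was -0.46 against -0.29 for all tested miRNAs. The 2 members above wild type by CPM were miR-467b-5p (0.54) and miR-669f-3p (0.49). With the limit at 1 CPM, 4 more were called lower, for 5 of 32 against 12.3% of 520 miRNAs, led by miR-669f-5p (230 counts in WT and 13 in GKT GKGT, log2 ratio -3.16).

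In PGKTP AAAAA 0 of 13 members were called higher, where 7.14% of all tested miRNAs were, and 2 were called lower, where 33.3% were. They were miR-466a-3p/miR-466e-3p (log2 ratio -1.35) and miR-669a-5p/miR-669p-5p (-1.28), and neither was called with either of the other scalings. The median was -0.45 against -0.54 for all tested miRNAs. Of the 13, 12 lay below 0 by CPM, 11 without miR-292-5p in the total and 5 with median-of-ratios size factors, so a direction for the family depends on the scaling here. With the limit at 1 CPM, 8 of 32 were called lower against 32.5% of 520 miRNAs. Among them were miR-297b-5p (904 counts in WT and 24 in PGKTP AAAAA, log2 ratio -3.28), miR-669f-5p (230 and 10, -2.53) and miR-466f-5p (164 and 9, -2.19). miR-297a-5p was at 0.46 (511 and 185 counts) and miR-297c-5p at 1.63 (43 and 35), so the miR-297 5p strands parted in this library.

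**Figure D4:**
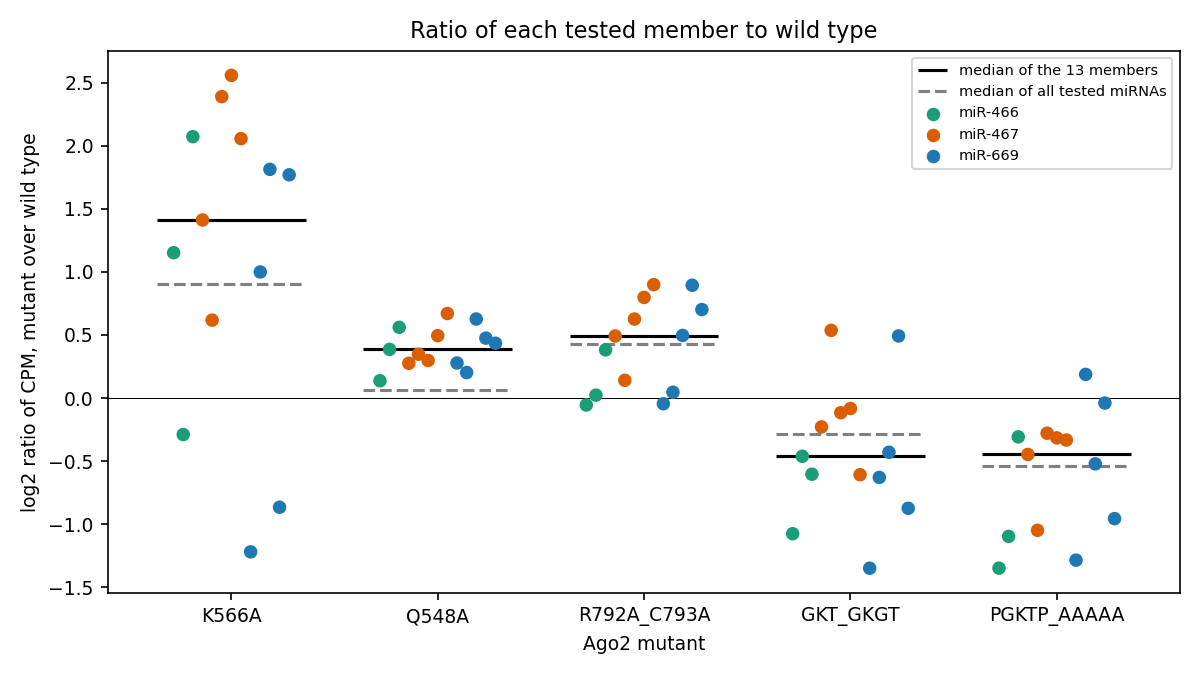
Points are the log2 ratios of CPM to wild type of the 13 tested members, coloured by group of members, in each of the 5 mutants, 1 library each. The solid line is the members' median and the dashed line that of all 336 tested miRNAs. K566A spreads the members from -1.22 to 2.56, and Q548A keeps them between 0.14 and 0.67.

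The 2 loop mutants were also set against each other. GKT GKGT had 1 member higher than PGKTP AAAAA and 0 lower, where 25.6% and 5.95% of all tested miRNAs were called. The 1 was miR-467b-5p, at 35.9 against 11.96 CPM (log2 ratio 1.58, 95% interval 1.41 to 1.77). With median-of-ratios size factors it was not called, and 1 member was called lower. At the other end was miR-669c-5p at -0.82, with 95.9 against 169 CPM. The ratio of the first strand to the second therefore differed by 2.40 log2 units between the libraries, whatever the library size.

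Strand choice was read within hairpins, from which the library size cancels. A hairpin was tested with at least 100 counts over the 6 Ago2 libraries, which left 32 hairpins of the family among 402. Of these 17 have no arm counted for another hairpin. In wild type 23 of the 32 family hairpins (71.9%) had more 5p than 3p counts, against 207 of all 402 (51.5%), and 20 of the 32 had a 5p share above 90%. Of the 17 with no shared arm, 13 had more 5p counts. The hairpins of miR-467a, miR-467b, miR-467c and miR-467e and of miR-669c kept a 5p share of at least 99.4% in every Ago2 library.

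Strand share was called by the odds of 5p to 3p counts (interval wholly past 2 or 0.5). By this rule 2 of 32 family hairpins gained 5p and 4 gained 3p in K566A, where 37.8% of all hairpins were called in either direction. The counts were 0 and 0 in Q548A (9.2%), 1 and 2 in R792A C793A (20.1%), 1 and 3 in GKT GKGT (29.4%), and 2 and 2 in PGKTP AAAAA (24.9%). miR-669f, whose 3p strand is the major one in these cells, was called towards 3p in 3 mutants. The 5p share was 15.97% in WT (230 of 1440 counts, Wilson 14.2 to 17.95), 14.4% in Q548A and 13.3% in K566A, but 6.41% in R792A C793A (5.25 to 7.80), 3.13% in PGKTP AAAAA (1.71 to 5.67) and 1.44% in GKT GKGT (0.842 to 2.44). Both of its strands come from 1 locus each, at the upstream end of the cluster.

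miR-467d moved towards 5p. Its 5p share was 90.9% in WT (89.99 to 91.7) and 95.4% to 97.7% in the 5 mutants, with calls in K566A (97.7%) and PGKTP AAAAA (97.2%). WT was therefore the library that stood apart, and whether this lies in the wild-type library or in the mutants cannot be told apart. miR-669b moved towards 3p in GKT GKGT, from 95.5% 5p (191 of 200 counts) to 57.8% (37 of 64 counts, 45.6 to 69.1), and had 87.0% in PGKTP AAAAA and 92.0% to 100% in the others. This rests on 9 counts of the 3p strand in WT and 27 in GKT GKGT.

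The other 7 called hairpins share an arm with another hairpin or a merged name, so their shares mix copies. In K566A the 5p share of miR-669o went from 43.6% to 2.06%, that of miR-669a from 69.6% to 21.3%, that of miR-466b from 77.1% to 49.3% and that of miR-669a-3 from 97.6% to 89.1%. These 4 are the hairpins called towards 3p in K566A. miR-669o was also called towards 3p in R792A C793A, where its 5p share was 23.2% (20.2 to 26.6). miR-297c went towards 5p, from 43.9% to 81.6% in K566A and 89.7% in PGKTP AAAAA. miR-669p went from 94.4% to 71.4% in GKT GKGT and 80.0% in PGKTP AAAAA. miR-466p went from 13.95% to 31.3% in R792A C793A and 33.5% in GKT GKGT.

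**Figure D5:**
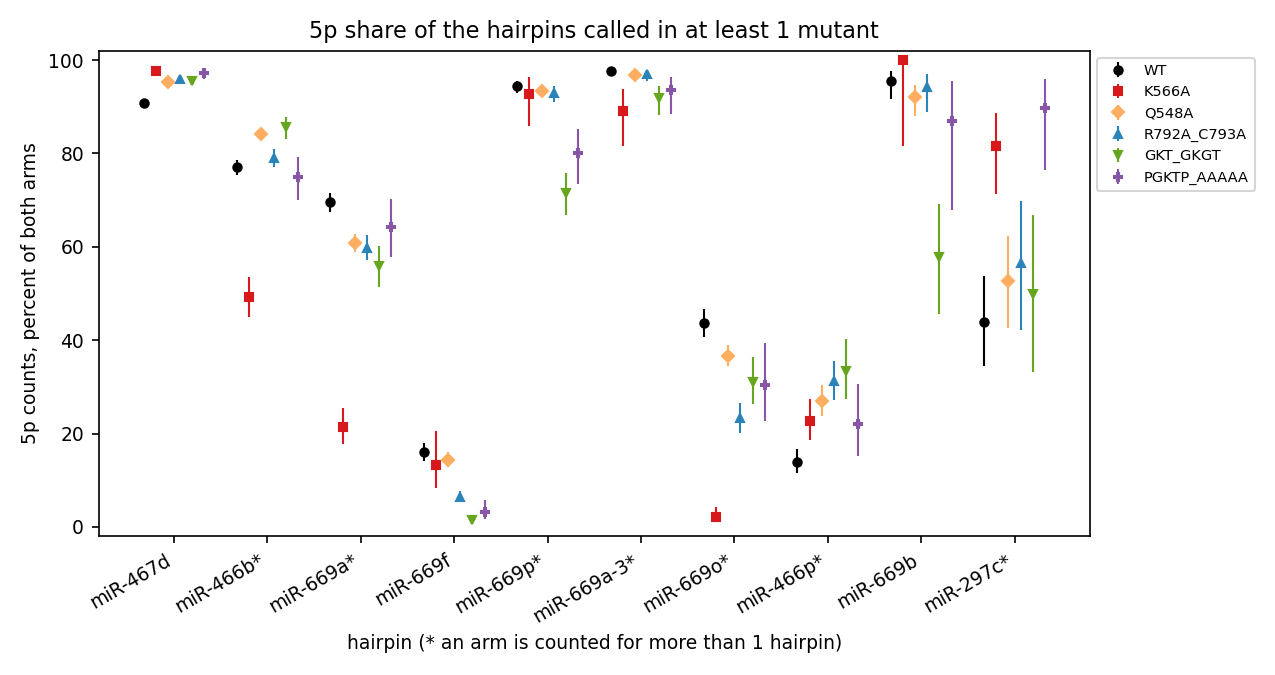
Points are the 5p share of the counts of both arms (percent) in each Ago2 library for the 10 hairpins called in at least 1 mutant, with Wilson 95% intervals for counting error. miR-669f lies at 15.97% in WT and 1.44% in GKT GKGT, and miR-669o at 43.6% in WT and 2.06% in K566A; 7 of the 10 hairpins, marked with a star, share an arm with another.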

How the data were processed

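The authors deposited raw read counts per mature miRNA locus, 1 column for each of 7 libraries, and all values used are these counts. Small RNAs were recovered with an anti-Flag antibody and made into libraries with a NEBNext kit, per the labels' protocols. CASAVA 1.8.2, TopHat2 2.0.9 and build mm9 are named in the submitters' processing notes. The sources used here do not name the counting program, say whether strand was used, or tell how a read matching more than 1 locus was treated.

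A name was counted by its highest locus, since loci of 1 name mostly had equal counts, whether reads were counted at each or split evenly. Names were merged where every library differed by at most 3 counts or 0.5 counting SD, with a sum of at least 100. CPM used the resulting total. Log2 ratios carry a pseudocount of 0.5 counts and exact conditional 95% intervals (Woolf's for arm odds with all 4 counts at 500 or more), computed with Python 3.11.15, numpy 2.4.6, pandas 2.3.3 and scipy 1.17.1. The call rule was run on simulated counts with known folds, fixed totals and counting error only. That run cannot show how the rule fares with variation between libraries or a shift in 1 abundant miRNA. No replicates exist, so no count model was fitted. Hairpins were built from the 5p and 3p loci of a name that lay within 150 nt.

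Named members are the 12 most abundant over the Ago2 libraries, up to 3 called rises and 3 falls per mutant, hairpins, and the ends of each range; the others are said to be chosen after their values were seen. Further called members and hairpins are named where they make up a count. Members and lists were chosen with earlier results of these data known. Classes by seed and by first base were planned and not made, since 1 member name had a sequence.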

Additional observations from a re-analysis of the deposited data

How the results depend on the processing

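Each group has 1 library, and depth limits members below about 10 CPM in K566A and PGKTP AAAAA. The alternatives for the summed fold and the direct comparisons, and the filter without K566A, were chosen after seeing the data; that filter kept each count of called members within 1.5 times.

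The family's share of counts (0.0881% in WT, in the library order WT, K566A, Q548A, R792A C793A, GKT GKGT, PGKTP AAAAA, empty) became 0.243%, 0.379%, 0.320%, 0.285%, 0.239%, 0.230% and 0.365% with miR-292-5p left out of the total. With the loci of a name added up it became 0.304%, 0.775%, 0.375%, 0.403%, 0.240%, 0.215% and 0.314%. With equal-count names not merged it became 0.0952%, 0.309%, 0.120%, 0.129%, 0.0745% and 0.0732% in the 6 Ago2 libraries. By construction, a smaller total or copies counted again raise a share.

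The summed fold over wild type with median-of-ratios size factors was 1.91 in K566A, 1.18 in Q548A, 1.07 in R792A C793A, 0.901 in GKT GKGT and, reversed, 1.22 in PGKTP AAAAA. Without miR-292-5p in the total it was 1.56, 1.32, 1.17, 0.987 and 0.948 in that order.

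In K566A, members called higher (8) numbered 4 with median-of-ratios size factors, 2 without miR-292-5p in the total, 16 with a limit of 1 CPM and 18 with no filter. Members called lower (0) numbered 2, 3, 3 and 3 in that order, 1 by the ratio with no interval and 1 past 1.5-fold. In Q548A, 1 was higher past 1.5-fold. In R792A C793A, 4 were higher past 1.5-fold, and with no filter 1 was higher and 1 lower. In GKT GKGT, 1 was higher with no filter. Those lower there (1) numbered 0 with median-of-ratios size factors, 0 without miR-292-5p, 5 at 1 CPM, 6 with no filter, 2 with no interval, 3 past 1.5-fold and 2 unmerged. In PGKTP AAAAA those lower (2) numbered 0, 0, 8, 8, 4, 5 and 4 in the same order. With median-of-ratios size factors, GKT GKGT over PGKTP AAAAA had 0 higher and 1 lower, and K566A over Q548A had 2 higher.

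The members' median minus that of all tested miRNAs (0.06 in R792A C793A, 0.09 in PGKTP AAAAA) was -0.22 and -0.18 at 1 CPM, and -0.17 and -0.20 unmerged, so its direction depends on which members enter. In K566A, Q548A and GKT GKGT it kept its direction with a pseudocount of 5, at 1 CPM and unmerged. With no filter, over 57 members, it kept its direction in Q548A (0.30) and GKT GKGT (-0.40). In K566A it was 0.51 in the main setting, 0.19 at 1 CPM and -0.05 with no filter, so there too the direction depends on which members enter. Hairpin calls with at least 20 counts stayed within 1.5 times. Of 160 log2 ratios of single members, 17 lost and 6 gained their call with median-of-ratios size factors, and 19 and 9 without miR-292-5p, with 0 called ratios reversed. The causes were not tested. No paired analysis was possible because each group has 1 library.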
